A study of Mus musculus with 1 sample.

Results

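The Rab family of small GTPases was examined in cultured mouse lung cancer cells. The 62 genes were those whose platform symbol was Rab followed by a number and at most 1 letter, or Rab with an l before its last digit, so that effectors and regulators such as Rab11fip or Rab3gap genes were left out. They were measured by 140 of the 34945 probe sets that named exactly 1 gene, and made up 62 of 18194 measured genes. The material was 1 sample of 1 group, total RNA of the line labelled KR Primary, derived from a KR tumor of the B6/J strain, with no treatment named in the labels, collected at 80 to 90 percent confluency. The labels do not spell out KR. With 1 line on 1 Affymetrix array there was no comparison between conditions, no replicate error and no p-value, and values of different genes are not ranked because probe sets report the same amount of RNA with different brightness.

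Rab proteins switch between a GTP-bound state, in which they bind effectors on a membrane, and a GDP-bound state, in which a GDP dissociation inhibitor can carry them through the cytosol. Exchange factors (GEFs) switch them on, GTPase-activating proteins (GAPs) switch them off, and a prenyl group at the C-terminus holds them in the membrane. Each Rab marks particular compartments, and in epithelial cells some of them direct cargo to the apical or the basolateral surface.

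Signals are fluorescence in arbitrary units, and each was read against a background made of 126 probe sets for smell and taste receptor, vomeronasal receptor and keratin-associated protein genes. The background line was the 95th percentile of those probe sets, 16.8, and the upper background limit was the highest of them, 60.6. For a gene to pass either threshold, 1 probe set above it sufficed. The label of lung cancer cells was checked against fixed markers. All 4 epithelial markers (Cdh1, Epcam, Krt8 and Krt18) were above the upper limit. Of the 3 lung epithelial markers, Nkx2-1 at 7.66 and Scgb1a1 at 1.38 were not above the line and Sftpc, at 21.1 on the higher of its 2 probe sets, was not above the upper limit. None of 4 neuron and neuroendocrine markers passed the line. Of 3 leukocyte markers only Cd68 passed either threshold, and Ptprc read at most 11.5. Endothelial, fibroblast and melanocyte markers each passed the line in 1 of 3 genes and muscle markers in 1 of 2, none of them above the upper limit.

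Most of the Rab family gave signal. The line was passed by 51 of the 62 genes, against 63.3% of all measured genes, and the upper limit by 41, against 47.5% of all genes. Another 10 lay between the thresholds, and 11 had no probe set above the line, against 36.7% of all genes. The median over genes of the highest signal was 204 for Rab genes and 48.3 for all genes, a description that also depends on probe brightness and on the number of probe sets, since 40 of 62 Rab genes and 9009 of 18194 genes had 2 or more. The share of probe sets above the line was 76.4% for Rab genes, against 60.9% for all one-gene probe sets, and above the upper limit 54.3%, against 41.1%.

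The number of probe sets per gene affects such counts, because a gene with more probe sets has more chances to pass. Of the 22 Rab genes with 1 probe set, 17 (77.3%) passed the line, against 48.3% of all genes with 1 probe set. With 2 probe sets the share was 81.0% of 21 Rab genes, against 72.4% of all such genes, and with 3 it was 9 of 9, against 82.3%. With 4 probe sets, and again with 5 or more, 4 of 5 Rab genes passed, against 87.5% and 90.9% of all genes. The higher share of Rab genes was therefore seen in the classes with 1 to 3 probe sets. At the upper limit 11 of 22 Rab genes with 1 probe set passed, against 32.6% of all such genes, and 16 of 21 with 2, against 54.9%. With 3, 4, and 5 or more probe sets the counts were 7 of 9, 3 of 5 and 4 of 5, against 67.2%, 71.8% and 82.4%.

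**Figure D1:**
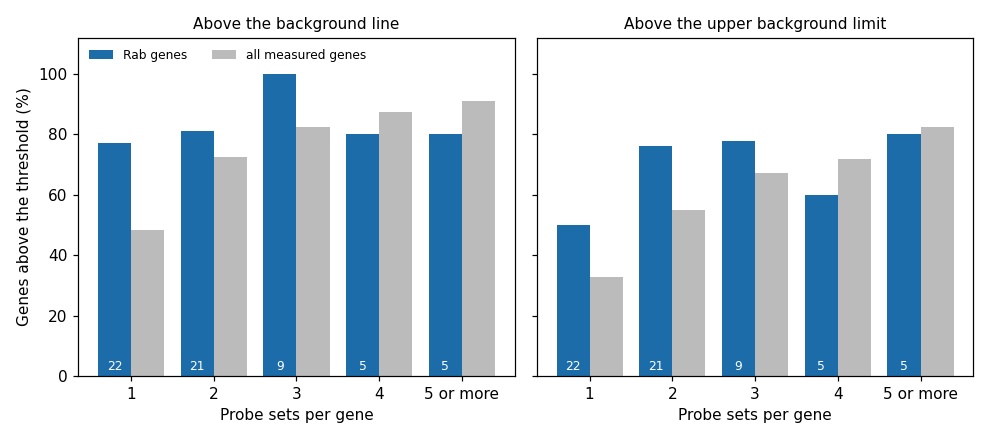
Share of genes above each threshold (percent) by the number of probe sets per gene, for Rab genes (blue, with the number of genes at the foot of each bar) and all measured genes (grey). With 1 probe set, 77.3% of Rab genes and 48.3% of all genes were above the background line, and with 4 or more the Rab share was the lower one.

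Probe sets of 1 gene gave unlike signals, and this is the only spread the array holds. Over the 40 Rab genes with 2 or more probe sets, the SD of their log2 signals had a median of 1.12, against 1.45 over all 9009 such genes, and ranged from 0.020 for Rab37 to 4.89 for Rab8a. The probe sets of a gene disagreed on the line in 8 of the 40 Rab genes, against 32.9% of all such genes. Every probe set passed the line in 43 of 62 Rab genes, against 47.0% of all genes, and the median probe set passed in 50, against 57.8%.

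Each Rab gene was placed in 1 of 7 role classes from textbook knowledge. Some act in more than 1 compartment, and class counts depend on this placing. Among the 14 Rab genes in the ER and Golgi class, 12 passed the line, against 63.3% of all genes. Of those, 8 also passed the upper limit, against 47.5% of all genes. With a line at the background median plus 3 scaled median absolute deviations, 7 of the 14 passed, against 42.4% of all genes. Rab1a, which carries cargo from the ER to the Golgi, gave 3759, 780.3 and 17.1 on its 3 probe sets, and its paralog Rab1b gave 345 on 1. Rab2a, which acts between the ER and the Golgi, gave 1912, 1543, 1223, 83.7, 78.3, 64.4 and 3.80. Rab2b read from 26.4 to 73.1 on 5 probe sets, of which 1 was above the upper limit. Both members of the Rab1 and the Rab2 pairs were thus above the upper limit on at least 1 probe set. The SD between the log2 signals of their own probe sets was 4.002 for Rab1a and 3.28 for Rab2a. Rab18, a Rab of lipid droplets and the ER, gave 1210.2 and 608. Rab33b, a Golgi Rab that also takes part in autophagy, gave 198, and Rab34, which acts at the Golgi and in cilium formation, gave 332 and 218. These 3 genes were above the upper limit on every probe set. Rab33a at 23.5 and Rab19 at 32.3 lay between the thresholds on their only probe sets. Rab36 gave 39.7, 18.2 and 2.13, and Rab43, a Golgi Rab, gave 55.3, 30.8 and 16.2, so that each had 1 of 3 probe sets under the line and none above the upper limit. Rab30, another Golgi Rab, gave 11.2 and 2.36 and was not above background.

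The Rab6 pair fell on opposite sides of both thresholds. Rab6a, which drives traffic within the Golgi and back to the ER, gave 1203, 999.6 and 615, all above the upper limit. Rab6b, its paralog known for expression in neurons, gave 12.5, 12.2, 11.5 and 4.43, all under the line. The RefSeq sequences before their start sites (build GRCm38.p6) are shown because both genes carry CpG-dense promoters although the array separated them. Each runs 5′ to 3′ over the 250 bases upstream of the annotated start, with CG dinucleotides in capitals, for Rab6a at chr7:100607336-100607585 and for Rab6b at chr9:103111824-103112073, both on the plus strand.
Rab6a: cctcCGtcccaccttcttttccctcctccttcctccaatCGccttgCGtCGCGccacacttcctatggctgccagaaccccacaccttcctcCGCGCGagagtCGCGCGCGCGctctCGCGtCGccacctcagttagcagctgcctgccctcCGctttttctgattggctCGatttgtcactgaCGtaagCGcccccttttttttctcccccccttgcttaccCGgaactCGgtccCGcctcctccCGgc
Rab6b: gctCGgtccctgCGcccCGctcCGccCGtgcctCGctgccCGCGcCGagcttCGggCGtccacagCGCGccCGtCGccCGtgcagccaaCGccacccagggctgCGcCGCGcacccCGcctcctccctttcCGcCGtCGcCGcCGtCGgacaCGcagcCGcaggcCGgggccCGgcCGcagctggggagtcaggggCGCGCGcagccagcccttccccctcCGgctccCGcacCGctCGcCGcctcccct
These upstream stretches held 24 CpG for Rab6a and 40 for Rab6b. The gene whose probe sets were all under the line had the more CpG-dense upstream stretch.

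All 10 early endosome Rab genes were above the line on every one of their 23 probe sets, against 47.0% of all genes. Of these, 8 were above the upper limit, against 47.5% of all genes. Rab5 proteins control fusion of early endosomes. Rab5a gave 1254 and Rab5c 211 on single probe sets, whereas Rab5b gave 28.5 and 23.6, between the thresholds. Rab4a and Rab4b, which return cargo quickly to the surface, gave 79.8 and 62.0 for Rab4a and 252 for Rab4b. Rab14, which acts between the Golgi and endosomes, gave 2846, 1134, 851, 714, 154, 60.0 and 19.7 on 7 probe sets. Of these 5 were above the upper limit. Rab21, known for traffic of integrins, gave 1372 and 92.2. Rab22a, an early endosome Rab, gave 282, 208, 83.8 and 60.61, the last just above the upper limit of 60.59, and its close relative Rab31 gave 563 and 111. All probe sets of these 3 genes were above the upper limit. Rab20, a Rab of endosomes and phagosomes, gave 31.0 on its only probe set.

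Recycling and polarised delivery was the other large class with every gene above the line, 11 of 11, against 63.3% of all genes. The upper limit was passed by 10 of them, against 47.5% of all genes. The exception at the upper limit was Rab15, at 58.6 on its only probe set. Rab11a, the main Rab of recycling endosomes, gave 2682 and 547, and Rab11b gave 383, 101 and 37.8. Rab25, the epithelial member of the Rab11 group, gave 1076 on its only probe set. Rab17, another epithelial Rab, known for transport through polarised cells, gave 131 and 57.1. The epithelial Rab25 and Rab17 were therefore both above the upper limit, Rab17 on 1 of 2 probe sets, in a culture whose epithelial markers were above it as well. Rab10, which delivers cargo to the basolateral surface, gave 1737, 1483 and 936. Rab8a and Rab8b, Rabs of exocytosis and of the cilium, each passed the upper limit on 1 probe set: Rab8a gave 596, 30.5 and 0.689, and Rab8b gave 354 and 19.7. Rab13, a Rab of tight junction traffic, gave 133, and Rab35, which recycles cargo at the plasma membrane, gave 259. Rab12 gave 471 and 16.94, the second of these next to the line. The call of Rab8a and of Rab12 above the upper limit thus rests on 1 probe set each.

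**Figure D2:**
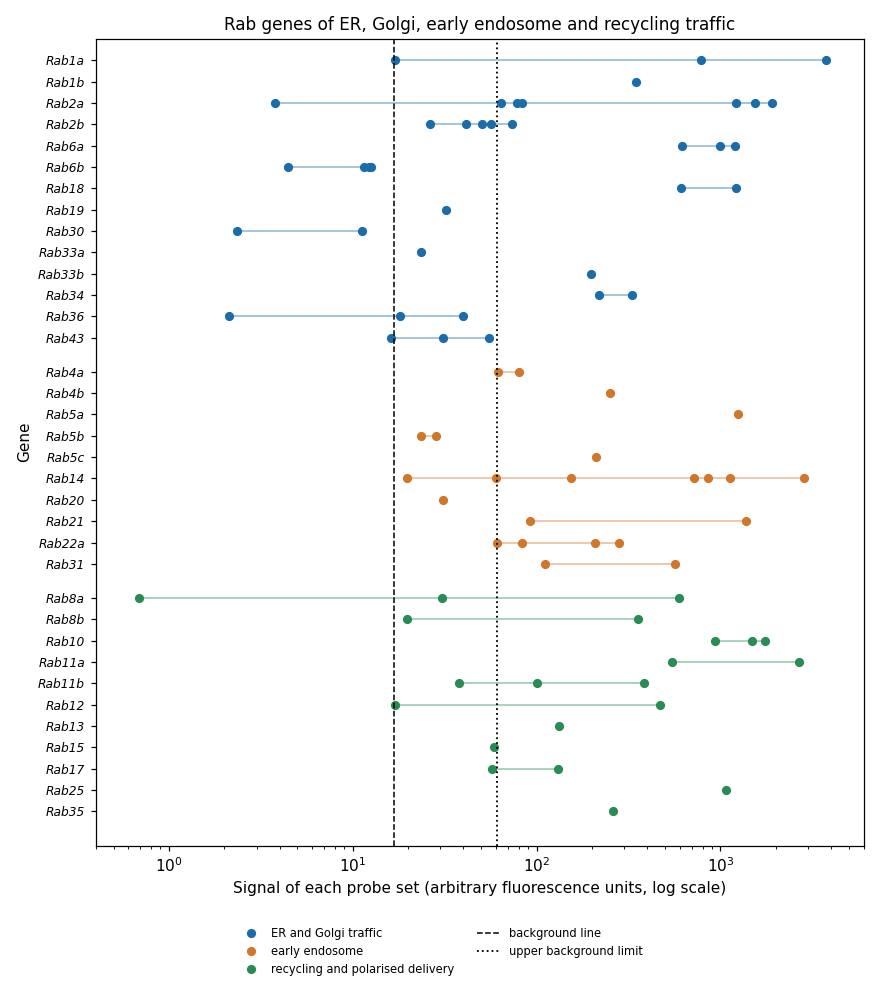
Signal of each probe set (arbitrary units, log axis) for the 35 Rab genes of ER and Golgi traffic, early endosomes, and recycling and polarised delivery. Points are probe sets, thin lines join those of a gene, and the vertical lines are the background line (16.8) and the upper limit (60.6). All early endosome and all but 1 of the recycling probe sets lay above the background line, and Rab6b and Rab30 lay below it.

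The upstream stretches of Rab11a, Rab25 and Rab17 are shown as examples of a broadly expressed Rab and of epithelial members of the same class. They run 5′ to 3′ over the 250 bases before the start in GRCm38.p6, at chr9:64737757-64738006, chr3:88548280-88548529 and chr1:90967668-90967917, all on the minus strand, with CG in capitals.
Rab11a: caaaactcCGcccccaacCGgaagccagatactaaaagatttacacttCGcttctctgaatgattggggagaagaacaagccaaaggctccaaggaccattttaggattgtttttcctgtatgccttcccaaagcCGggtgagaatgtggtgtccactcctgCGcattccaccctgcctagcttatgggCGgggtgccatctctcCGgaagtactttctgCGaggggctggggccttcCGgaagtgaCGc
Rab25: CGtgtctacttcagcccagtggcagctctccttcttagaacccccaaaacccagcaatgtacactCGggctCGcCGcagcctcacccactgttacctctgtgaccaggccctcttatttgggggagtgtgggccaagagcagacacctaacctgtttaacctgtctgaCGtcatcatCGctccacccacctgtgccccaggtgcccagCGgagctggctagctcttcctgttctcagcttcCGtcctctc
Rab17: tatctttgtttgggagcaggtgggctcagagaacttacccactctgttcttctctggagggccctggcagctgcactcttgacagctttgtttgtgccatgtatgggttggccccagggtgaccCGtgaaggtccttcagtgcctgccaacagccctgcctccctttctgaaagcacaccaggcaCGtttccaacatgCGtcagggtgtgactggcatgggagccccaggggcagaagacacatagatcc
The counts of CpG were 10 for Rab11a, 8 for Rab25 and 3 for Rab17. Over the full window of 300 bases Rab17 had 5, the fewest among the Rab genes matched, although it was above the upper limit. In the same window Rab25 and Rab9 each had 9 and Rab11b had 12, while Rab10 and Rab35 each had 43.

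Of the 11 Rab genes of late endosomes, lysosomes and related organelles, 7 were above the line and 6 of them past the upper limit, shares near the 63.3% and 47.5% of all genes. Rab7, which directs late endosomes to lysosomes, gave 1564 and 1059. Rab9, which returns mannose 6-phosphate receptors to the Golgi, gave 460.1, and Rab24, linked to autophagy, gave 680.3 and 315. Rab29, a Golgi Rab that partners the kinase LRRK2, gave 105, while the single probe set of Lrrk2 itself read 10.6, under the line. These 4 Rab genes were above the upper limit on every probe set. Rab7b, which acts between endosomes and the Golgi, gave 68.8, 27.99 and 2.29, so that 1 of 3 probe sets passed the upper limit. Rab9b, the paralog of Rab9, gave 16.92 on its only probe set, next to the line.

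Rab38 and Rab32, close relatives that build melanosomes and other lysosome-related organelles, fell on opposite sides. Rab38, also known from the lamellar bodies of alveolar type 2 cells, gave 467 and 335, whereas Rab32 gave 13.7 on its only probe set, under the line. The marker of those cells in the fixed list, Sftpc, was not above the upper limit, and of the 3 melanocyte markers Dct, at 19.1, was between the thresholds while Tyr at 7.55 and Mlana at 3.37 were not above the line. Rab39 at 2.61, Rab39b at 8.19 and 7.27 and Rab42 at 11.3 were not above background.

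Regulated secretion had the lowest share of genes above the line among the classes of 5 or more genes, 5 of 9, against 63.3% of all genes. The upper limit was passed by 3, against 47.5%. Of its 24 probe sets 11 were above the line, against 60.9% of all one-gene probe sets, a count in which genes with many probe sets weigh more. The count of 5 genes falls to 3 with a line at the 99th percentile, with a background of keratin-associated genes alone, with the line set by median absolute deviations, or if every probe set must pass. The share of all genes fell too under these settings, to 52.8%, 59.6%, 42.4% and 47.0% in that order. Rab27b, which docks secretory granules and exosome-bearing endosomes, gave 279, 139, 116 and 60.52, so that 3 of 4 were above the upper limit and the fourth lay just under it. Rab27a, its paralog in melanocytes and cytotoxic lymphocytes, gave 16.82, 7.38, 5.10 and 1.67. Only the first of these passed the line, which stands at 16.80. Rab3 proteins act at synaptic vesicles and secretory granules. Rab3d, the member of exocrine granules, gave 150.1, 74.0, 46.4 and 13.9. Rab3a, the main synaptic member, gave 230.2 and 26.7. The brighter of those Rab3a probe sets has a name ending in _x_at, which marks probes that can bind transcripts of more than 1 gene, and without it Rab3a lay between the thresholds. Rab3b gave 18.6 on its only probe set. Rab3c gave 8.70, 7.60, 4.82, 1.75 and 0.622, all under the line. Rab26 at 2.68, Rab37 at 6.08 and 5.96 and Rab44 at 1.94 were also not above background, and these 3 are known from granules of exocrine, endocrine or blood cells.

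The upstream stretch of Rab3c is shown as that of a gene with 5 probe sets under the line, from GRCm38.p6 at chr13:110280207-110280456 on the minus strand, 5′ to 3′ with CG in capitals.
Rab3c: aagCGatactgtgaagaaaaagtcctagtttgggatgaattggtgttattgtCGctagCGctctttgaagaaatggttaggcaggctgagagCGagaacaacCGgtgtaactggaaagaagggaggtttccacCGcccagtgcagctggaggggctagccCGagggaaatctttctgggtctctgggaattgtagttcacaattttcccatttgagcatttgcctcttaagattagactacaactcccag
It held 7 CpG.

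All 5 genes of the cilium and Rab-like class were above the upper limit on at least 1 probe set, against 47.5% of all genes. By the median of its probe sets Rab23 was not above it, and if every probe set must pass, neither Rab23 nor Rabl6 was. Rab23, a negative regulator of Hedgehog signalling, gave 128, 58.8 and 48.5. Rab28, a Rab of photoreceptor cilia, gave 293 and 192. Rabl2, which acts in transport within cilia, gave 108, Rabl3 gave 344 and 107, and Rabl6 gave 284, 197, 61.2, 15.1 and 9.24. Of these 13 probe sets, 11 were above the line, against 60.9% of all one-gene probe sets, and those under it belonged to Rabl6. Rab40 proteins differ from other Rabs by a SOCS box that recruits a ubiquitin ligase. Rab40c gave 421 and 71.2, above the upper limit on both probe sets, and Rab40b gave 12.3 and 7.14, under the line on both.

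**Figure D3:**
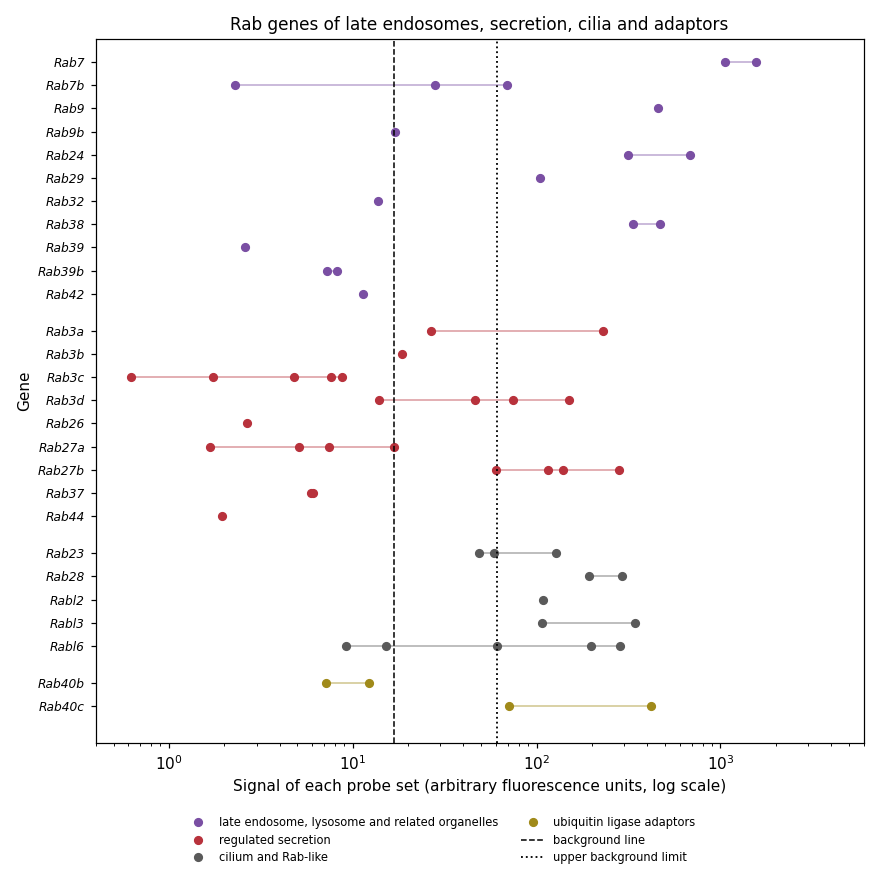
Signal of each probe set (arbitrary units, log axis) for the 27 Rab genes of late endosomes and related organelles, regulated secretion, cilia and Rab-like proteins, and ubiquitin ligase adaptors, drawn as for the other classes. Rab27b, Rab38 and Rab40c lay above the background line on every probe set, and Rab32, Rab3c and Rab40b lay below it on every probe set.

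Paralogs with the same number were compared by their calls. Of 14 such families with 2 or more measured genes, 31 genes in all, 6 had every member above the upper limit (Rab1, Rab2, Rab4, Rab7, Rab8 and Rab11). These calls rest on the highest probe set of a gene, by which 47.5% of all genes passed that limit. By the median of their probe sets Rab2b, Rab7b and Rab8a were not above it. In 3 families, Rab3, Rab6 and Rab40, at least 1 member was above the upper limit and another had no probe set above the line. The Rab5, Rab9, Rab27 and Rab33 families had a member above the upper limit and another between the thresholds, and Rab39 had none above the line. Probe sets shared between near-identical paralogs could not be separated by name, and no probe set naming more than 1 gene named a Rab gene.

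Promoter windows of 300 bases, 250 before to 50 after the start, were available for 51 of the 62 genes (RefSeq, GRCm38.p6), and of 8 genes with several windows the one with most CpG was used. Rab26, Rab27b, Rab2a, Rab18, Rab30, Rab36, Rab37, Rab38, Rab44, Rab4a and Rab7b had none. The median count of CpG was 23 for Rab genes, with a range of 5 to 45, against 18 for 14368 measured genes. It was 25 for the 35 Rab genes above the upper limit, 16 for the 9 between the thresholds and 11 for the 7 not above the line, against 24, 17 and 7 for all measured genes with the same calls. Windows with 5 or fewer CpG were 1 of 51 (1.96%) for Rab genes, against 19.8% of measured genes. Among genes above the upper limit they were 1 of 35 (2.86%) for Rab genes, against 3.94% of measured genes, and among genes not above the line none of 7, against 42.5%. The cutoff of 5 equals the lowest count among the Rab genes themselves. Low Rab shares follow from that placing, so these shares are not a result about Rab promoters. The medians stood in the same order in Rab genes and in all genes, and the Rab genes not above the line ranged from 6 for Rab42 to 42 for Rab6b.

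**Figure D4:**
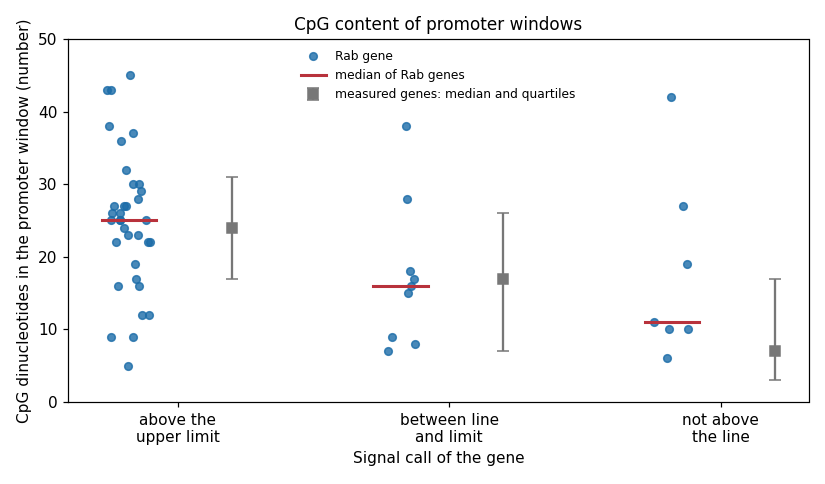
Number of CpG dinucleotides in the 300-base promoter window by signal call, for each matched Rab gene (blue points, red bar at the median) and for all measured genes (grey, median and quartiles). Medians were 25, 16 and 11 for Rab genes and 24, 17 and 7 for all measured genes, and Rab6b stands at 42 among the genes not above the line.

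Short motifs were searched on both strands of the same windows. The GC box GGGCGG was in 70.6% of Rab windows, against 56.2% of measured genes. Among genes above the upper limit it was in 68.6% of Rab windows, against 71.2%, and among genes not above the line in 5 of 7, against 35.2%. The TATA box TATAAA was in 3 of 51 (5.88%), for Rab3b, Rab39b and Rab42, none of them above the upper limit, against 9.34% of measured genes. The ETS core CCGGAAG was in 9.80% of Rab windows, against 14.2%. Its 5 matches, in Rab8a, Rab11a, Rab14, Rab17 and Rab24, were all in genes above the upper limit, which is 14.3% of the Rab windows with that call, against 22.1% of measured genes above the limit and 4.24% of those not above the line. The E-box CACCTG, bound by ZEB and SNAIL repressors, was in 15.7%, against 19.9%, in Rab3a, Rab5c, Rab9, Rab17, Rab19, Rab22a, Rab25 and Rab27a. The E-box CACGTG of TFEB and MITF factors was in 7.84%, against 9.24%, and the M-box core CATGTG of MITF in 5.88%, against 9.61%. Such matches are descriptions of the letters in these windows and not sites.

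The machinery that serves Rab proteins was read from fixed lists. The line was passed by 126 of 142 measured genes and the upper limit by 103, against 63.3% and 47.5% of all genes. All 8 measured genes of prenylation and membrane cycling passed the upper limit. Gdi2, a GDP dissociation inhibitor, gave between 1716 and 3321 on 6 probe sets. Rabggta and Rabggtb, subunits of the enzyme that prenylates Rabs, gave 415 and 850.3. The escort proteins that present Rabs to that enzyme gave 377 and 185 for Chm, and 170.3 and 22.5 for Chml. Rabif gave 441, 26.2, 19.2 and 16.6, the last under the line.

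Exchange factors passed the line in 29 of 32 genes and GTPase-activating proteins in 30 of 34, against 63.3% of all genes. Above the upper limit were 22 and 23, against 47.5% of all genes. With the line set by median absolute deviations, 20 of 32 exchange factors and 19 of 34 GTPase-activating proteins passed, against 42.4% of all genes. Rin1 and Rabgef1, exchange factors for Rab5, gave 665 and 156 for Rin1 and between 234 and 365 on 3 probe sets for Rabgef1. The exchange factor genes not above the line were Dennd1a at 16.3, Dennd1c at 4.05 and Rab3il1 at 9.41 on their highest probe sets. The Rab3 GAP subunit genes Rab3gap1 and Rab3gap2 gave 155 for Rab3gap1, and 137 and 36.8 for Rab3gap2. GAP genes not above the line were Tbc1d9 at 6.72, Tbc1d10c at 12.0, Tbc1d30 at 10.2 and Evi5l at 15.1.

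Effectors were counted by the Rab proteins they serve, beside the 63.3% and 47.5% of all genes above the line and the upper limit. Differences between these lists were not tested, and the number of probe sets per gene also affects such counts. All 9 Rab5 effectors were above the upper limit, among them Eea1, the tether of early endosomes, at 199.5, and Rabep1 at 120.2 on the highest of 4 probe sets. All 12 Golgi tethers and effectors of Rab1, Rab2 and Rab6 were above it too. Rab11 family effectors passed the line in 10 of 11 genes and the upper limit in 8. That count of 10 falls to 6 with the line set by median absolute deviations, against 42.4% of all genes. It is also 6 if every probe set must pass the line, against 47.0%. Rab11fip5 gave 880.1 and 179, Rab11fip1 gave 73.8 and 22.3, and the motor gene Myo5b gave 308, 67.5 and 9.94. Sh3tc2, at 2.40, was the one under the line. Rab7 effectors passed both thresholds in 6 of 7, with Rilp at 12.4 the exception. Effectors of Rab8, Rab10, Rab13 and Rab35 passed the line in 10 of 11 and the upper limit in 6, and Otof, at 12.8, was not above the line. With the line set by median absolute deviations, 5 of those 11 passed, against 42.4% of all genes.

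The list of Rab3 and Rab27 effectors had the lowest share above the line among the 10 lists, 9 of 14. With 6 past the upper limit, it was close to the 63.3% and 47.5% of all genes. The list was broad and also held priming factor and neurotransmitter release genes, and its shares depend on that choice. The count above the line falls to 5 of 14 if every probe set must pass it, against 47.0% of all genes. Above the upper limit were the granule tether genes Sytl2 at 384 and Exph5 at 179, the priming factor genes Unc13d at 566 and Unc13b at 189 and 10.6, the myosin linker gene Mlph at 208 and 164, and Rph3al at 99.2 and 12.5. Sytl1 at 47.8, Rph3a at 29.5 and 4.28, and Rims2, with 1 of 5 probe sets above the line at 17.6, lay between the thresholds. Not above the line were Rims1 at 10.1, Rims3 at 9.99 and Unc13a at 13.0, which serve neurotransmitter release, Sytl4 at 7.60 and Myrip at 11.3. Neuron markers were under the line in the same sample, 0 of 4. Of the kinases of Rab proteins 4 of 5 were above the upper limit, with Lrrk1 at 886, 585 and 62.4 and Lrrk2 the exception.

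**Figure D5:**
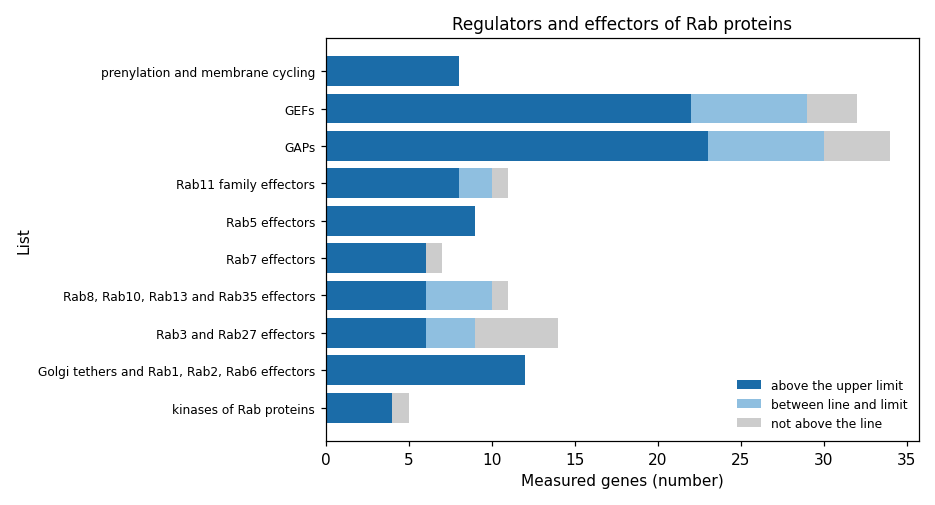
Number of measured genes in each list of Rab regulators and effectors, divided into those above the upper background limit, between the thresholds and not above the background line. Of 14 genes in the Rab3 and Rab27 list 5 were not above the line, whereas all 9 Rab5 effectors and all 12 Golgi genes were above the upper limit.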

How the data were processed

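Total RNA (150 ng) of 1 cell line was extracted with Trizol, labelled as biotin cRNA and hybridized to an Affymetrix 3′ array, per the labels' protocols. For 45101 probe sets the authors deposited 1 signal intensity each, on a linear scale. The submitters' processing notes name Affymetrix Expression Console, and no source used here gives its algorithm, version or correction for background.

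Probe sets were named from the platform annotation: 34945 named 1 gene, 932 several and 9160 none, beside 64 controls. Symbols other than those that chose the Rab genes were taken from a RefSeq table (GRCm38.p6) for the 34741 probe sets whose gene ID it held. Signals were set against a line (95th percentile) and an upper limit (highest) of 126 background probe sets. All Rab genes are named, and other genes by a fixed list, together with the members of each regulator or effector list not above the line. The remaining list genes given with values were named after their values were seen. Of 152 symbols in those lists 142 were measured, and the others, some of them older names of measured genes, were not used. Rab genes, lists and thresholds were chosen with earlier results of these data known. Upstream stretches leave out the 50 bases after the start. Promoter entries were taken to run with the gene, since TATAAA was most often found 30 or 29 bases before the start on either strand. A single array limits the precision. Alternatives changed the percentile, the background set, the form of the line, the probe sets admitted and their combination, the symbols and the inclusion of Rab-like genes. Python 3.11.15, numpy 2.4.6, pandas 2.3.3 and matplotlib 3.10.9 were used.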

Additional observations from a re-analysis of the deposited data

Results flagged for a closer look

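Antisense transcripts named for Rab genes are no members of the family, and their probe sets entered none of the counts above, yet 2 of them were above the upper background limit. Rab10os gave 221.8 on 1 probe set and 16.5 on the other, in a sample where all 3 probe sets of Rab10 were above the limit. Rab26os gave 79.2 on its only probe set, while the only probe set of Rab26 read 2.68.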

How the results depend on the processing

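No paired analysis was possible because there was 1 sample, and for the same reason no replicate could be left out. The count of 51 Rab genes above the line ranged from 38 to 51 over the alternatives and that of 41 above the upper limit from 26 to 48. The lowest of these, 26, against 27.3% of all genes, came from requiring every probe set to pass. Under that rule 1 role class, early endosome, in place of 3 had every gene above the line. A line at the median plus 3 scaled median absolute deviations stood at 94.6. It also left 1 such class, but a different one, cilium and Rab-like, with early endosome at 7 of 10. The 38 Rab genes above that line compare with 42.4% of all genes. The genes lost were Rab2b, Rab3b, Rab4a, Rab5b, Rab7b, Rab9b, Rab15, Rab19, Rab20, Rab27a, Rab33a, Rab36 and Rab43. Under all alternatives that kept the same genes, 34 Rab genes stayed above the line and 11 stayed under it. The same count was not made over all genes, so these numbers have no share to be read against. Without keratin-associated genes the upper limit was 19.2, and 48 Rab genes passed, against 60.8% of all genes. With the second highest background probe set as the limit (42.2), chosen after seeing the data, 43 passed, against 51.4%. Rab27a was lost under 6 alternatives, among them the median of its probe sets. The 126 regulators and effectors above the line ranged from 91 to 128. The 91 came from the line set by median absolute deviations, against 42.4% of all genes. The 128 came from a line at the 90th percentile, against 66.7%, and from leaving out keratin-associated genes, against 65.4%. Counts of single classes and lists moved by over 1.5 times in 10 of 136 cases, all downwards.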

Other observations

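Rab probe sets built on a RefSeq mRNA accession passed the line in 24 of 26 cases (92.3%), and those built on another accession in 67 of 95 (70.5%), while 16 of 19 with no accession listed passed (84.2%). Over all one-gene probe sets the shares of the RefSeq and other classes were 60.3% and 60.6%. The RefSeq probe set of Rab3a read 26.7, against 230.2 on its other one, and that of Rab32 was under the line at 13.7. No test was made of this difference, since probe sets of 1 gene are not independent.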
